A study of Drosophila melanogaster with 12 samples.

Results

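AGO2 lay on 2089 of 5577 narrow RNA polymerase II (Pol II) domains in mock-treated Kc167 cells, a share of 37.5% (95% Wilson interval 36.2% to 38.7%), which was 21.2% with the stronger 50% of AGO2 peaks alone. These 2089 domains, of 5905 Pol II domains in all, are the subject here. They were chosen by a rule that used the measurements: a domain of the mock Pol II list under 2000 bp wide that shared at least 1 bp with a peak of the mock AGO2 list. Their width and their mock AGO2 overlap are therefore given as descriptions. Kc167 is an embryonic Drosophila melanogaster cell line, labelled female, with hemocyte-like features, and AGO2 was mapped on its chromatin in LaminB knockdown and mock cells. The series holds 12 ChIP-seq and input libraries. AGO2 was immunoprecipitated from LaminB knockdown cells (2 libraries), which received LaminB dsRNA, and from mock cells (2 libraries), which were transfected with no dsRNA, with the AGO2 antibody labelled A. Mueller. Pol II was immunoprecipitated from mock cells alone (2 libraries) with antibody 8WG16, and the remaining libraries are inputs, 2 from LaminB knockdown cells and 4 from mock cells. All groups are of this 1 line, and no genotype differs between them. The LaminB level was not measured in these files, and Pol II in knockdown cells was not analysed here. Each AGO2 list pools its 2 libraries, so there is 1 list per condition, no replicate error and no test between conditions. The intervals given for shares cover the number of regions only, and neighbouring regions are not independent.

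AGO2 is the Argonaute protein that carries small interfering RNAs in fly RNA interference and cleaves their targets, and it has also been found in the nucleus on chromatin. LaminB is the B-type lamin of the fly nuclear lamina, the protein mesh under the inner nuclear membrane. Pol II often halts just downstream of a transcription start site (TSS) before elongating, a state common at developmental and signal-responsive fly genes. A narrow interval of Pol II signal at a TSS can hold an initiating or halted polymerase, while Pol II spread over a highly transcribed gene gives a broad one. GAGA factor, which binds GAGAG repeats, is found at many such promoters.

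The sequences at the AGO2 summits introduce the domains, because 2 sequence settings recur below: GA-rich introns near a TSS, and coding sequence just inside a gene. Each line gives 101 bases of the dm6 genome centred on the strongest mock AGO2 summit of a domain, read on the strand of the nearest TSS, with GAGAG or its complement CTCTC in capitals. The CHES-1-like, tacc, pnt, mld, Atpalpha, zfh2 and AGO2 domains are examples of those among the strongest in the LaminB knockdown list or without a TSS. The Top1 domain and the domain beside cbt are shown because they are among the strongest with no peak in that list.
CHES-1-like intron (chrX:7696732-7696832, - strand): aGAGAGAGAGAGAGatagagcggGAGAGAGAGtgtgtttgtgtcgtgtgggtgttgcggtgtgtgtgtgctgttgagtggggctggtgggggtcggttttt
tacc intron (chr3R:4739641-4739741, - strand): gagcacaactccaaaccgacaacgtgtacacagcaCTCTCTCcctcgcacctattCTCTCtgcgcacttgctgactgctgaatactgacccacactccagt
pnt intron (chr3R:23314456-23314556, - strand): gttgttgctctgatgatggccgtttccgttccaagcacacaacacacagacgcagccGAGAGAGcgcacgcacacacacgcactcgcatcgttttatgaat
mld intron (chr3R:24586617-24586717, + strand): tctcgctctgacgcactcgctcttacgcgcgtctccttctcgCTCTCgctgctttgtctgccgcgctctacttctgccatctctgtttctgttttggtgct
Atpalpha intron (chr3R:20957046-20957146, + strand): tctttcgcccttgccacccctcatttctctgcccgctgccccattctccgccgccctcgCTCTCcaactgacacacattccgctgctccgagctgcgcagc
zfh2 intron (chr4:502883-502983, + strand): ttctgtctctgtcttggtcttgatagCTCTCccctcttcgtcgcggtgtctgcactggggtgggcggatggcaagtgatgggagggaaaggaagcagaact
AGO2 coding sequence (chr3L:15554308-15554408, + strand): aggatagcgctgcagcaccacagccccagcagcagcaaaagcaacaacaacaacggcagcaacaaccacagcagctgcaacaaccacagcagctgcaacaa
Top1 intron (chrX:15323350-15323450, + strand): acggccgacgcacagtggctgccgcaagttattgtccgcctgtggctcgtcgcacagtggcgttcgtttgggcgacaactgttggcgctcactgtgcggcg
ush intron beside cbt (chr2L:481290-481390, - strand): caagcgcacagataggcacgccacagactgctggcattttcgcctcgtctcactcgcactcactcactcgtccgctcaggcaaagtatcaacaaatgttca
CHES-1-like held 8 copies of the motif in this window, tacc 3, pnt 2, and mld, Atpalpha and zfh2 1 each. The AGO2, Top1 and cbt windows held 0. Not shown are the windows of Tob, alpha-Man-Ia, puc and brk, which also held 0 and had knockdown peaks. The window of tara, without a TSS or a knockdown peak, held 0 as well. The windows shown are therefore no measure of how the motif goes with the knockdown list. The AGO2 window is rich in CAG and CAA triplets, and the AGO2 protein of flies is known for its glutamine-rich N-terminus. GC content was 64.4% in the Top1 and Atpalpha windows and 53.5% to 56.4% in the other windows shown.

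The domains with AGO2 had a median width of 780 bp (quartiles 520 and 1197 bp, range 161 to 1998 bp), against 521 bp for the 3488 narrow domains without AGO2. A wider domain more often held a peak. AGO2 lay on 22.2% of domains under 500 bp, 42.6% of those from 500 bp, 49.5% of those from 1000 bp and 62.4% of those of 1500 bp or more. Per length the order was not the same, with 0.480, 0.561, 0.437 and 0.439 mock AGO2 summits per kb in those 4 width classes. Of the 328 broad domains, which were 2000 bp or wider, 228 (69.5%) carried AGO2. At the edges of the rule, the widest domains kept were 1998 bp at ash2 and puf, 1994 bp at lncRNA:CR44206 and 1987 bp at CG15771 and lin-52, and the narrowest domains with AGO2 left out were 2001, 2002 and 2014 bp wide. The smallest overlaps kept were 1 bp at CG13001, 3 bp at dsh and 10 bp at CG5273. Most of the AGO2 peaks did not merely touch a domain, since 2000 of the 2277 mock AGO2 peaks on these domains (87.8%) had their summit inside one.

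**Figure D1:**
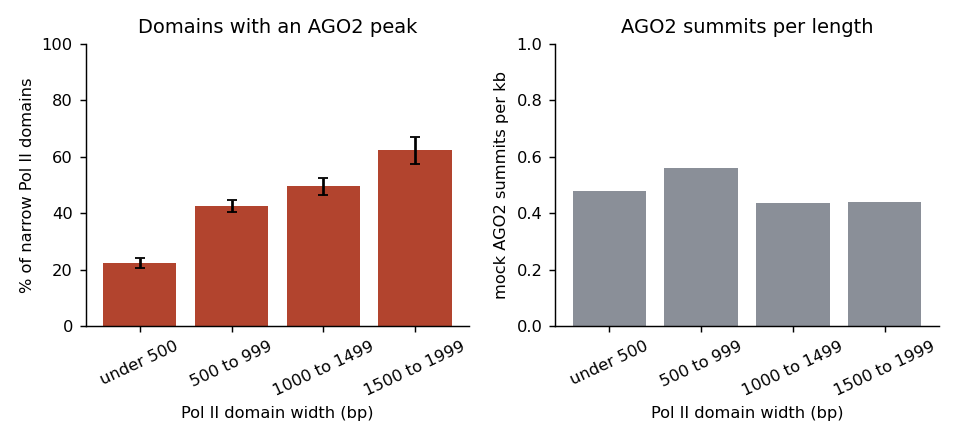
Left, the share of narrow Pol II domains with a mock AGO2 peak (percent, bars with 95% Wilson intervals) by domain width in bp. Right, mock AGO2 summits per kb of domain for the same width classes. The share is 22.2% in the narrowest class and 62.4% in the widest, while the summits per kb stay between 0.437 and 0.561.

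The mock AGO2 list held 4201 peaks, of which 2277 (54.2%) lay on these domains. A single peak lay on 1904 of the 2089 domains, 2 peaks on 180 and 3 peaks on 5. The 5 with 3 peaks lay at cbt, at Spp and nAChRbeta3, at Golgin97 and cnn, at chn, and within Tlk. The peaks were of moderate strength. Their median fold enrichment over input was 3.20 (quartiles 2.87 and 3.68), against 3.17 for the 1924 peaks elsewhere, and the median −log10 p was 22.4 against 20.6. Among the 100 strongest peaks of the mock list by −log10 p, 48 lay on these domains. By chromosome, AGO2 lay on 42.6% of narrow domains of X, 42.5% of 3R, 36.9% of 2R, 33.7% of 3L and 31.1% of 2L, and on 3 of 36 narrow domains of chromosome 4 (8.33%, interval 2.87% to 21.8%). Of the domains, 698 (33.4%) lay within 5000 bp of another. The same share was not computed for domains without AGO2 or for all Pol II domains, so nothing is read from it. The longest run held 5 domains in 18266 bp of chromosome X (21345270 to 21363535), with TSSs of dod, peng, sol, Septin1, bbx and waw, and it held no knockdown peak.

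The domains with AGO2 were promoter domains in their large majority. A TSS lay in 1864 of the 2089 (89.2%, interval 87.8% to 90.5%), against 2873 of 3488 narrow domains without AGO2 (82.4%), and 85.7% of all Pol II domains held one. Width moved with this difference, and within width classes the shares lay closer. They were 72.5% with AGO2 against 71.1% without it under 500 bp, 92.7% against 90.6% from 500 bp, 95.9% in both from 1000 bp, and 95.5% against 96.6% from 1500 bp. TSSs on both strands lay in 601 domains with AGO2, 32.2% of those with a TSS, against 26.3% without AGO2. Within width classes that order was not kept: the shares were 18.8% with AGO2 against 28.2% without it from 500 bp and 59.7% against 67.9% from 1000 bp, and both were 66.7% from 1500 bp. Around the TSS, domains with TSSs on 1 strand reached 145 bp upstream and 411 bp downstream (medians, n = 1263) with AGO2, against 105 and 331 bp (n = 2116) without it. Domains with AGO2 were also wider, and this comparison was not split by width. The downstream reach was the longer of the 2 in 85.0% of these domains with AGO2 and in 89.8% without it.

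AGO2 summits on these domains sat around and just downstream of the TSS. The median summit lay 145 bp downstream (quartiles 31 bp upstream and 317 bp downstream), and 1585 of 2277 summits (69.6%, interval 67.7% to 71.5%) lay downstream. The downstream share was 61.7% for mock peaks elsewhere and 66.0% for all mock peaks, so most summits lay downstream in the whole list. The unsigned distance had a median of 197 bp, against 1305.5 bp for AGO2 peaks elsewhere, and 80.9% of summits lay within 500 bp of a TSS against 27.1% elsewhere. The rule itself picks peaks on Pol II domains, most of which hold a TSS, so this nearness is a description of the choice. By annotated feature, 784 summits (34.4%) lay in coding sequence, 656 (28.8%) in 5′ UTRs, 501 (22.0%) in introns, 263 (11.6%) between genes, 59 (2.59%) in noncoding exons and 14 (0.615%) in 3′ UTRs. Elsewhere the 5′ UTR share was 7.80% and the coding share 37.2%. Coding summits lay farther into the gene, at a median of 258.5 bp downstream, against 112.5 bp downstream for 5′ UTR summits, 39 bp upstream for intronic ones and 75 bp upstream for intergenic ones.

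**Figure D2:**
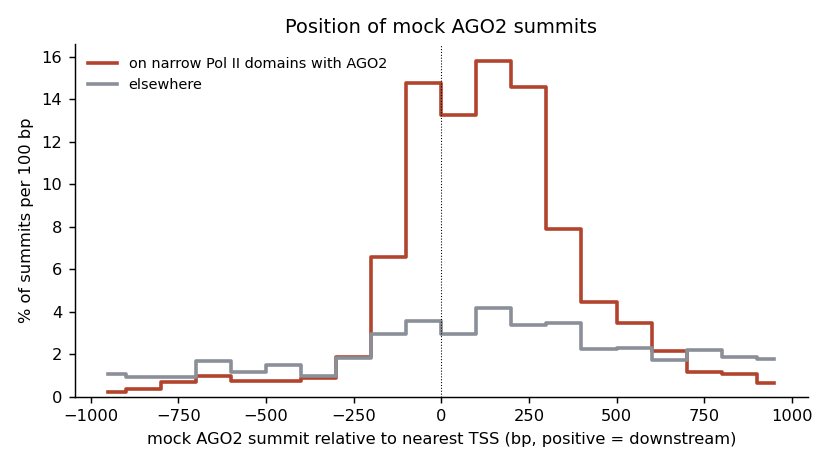
Percent of mock AGO2 summits in each 100 bp step from the nearest TSS (x axis in bp, positive downstream), for the 2277 summits on narrow Pol II domains with AGO2 and the 1924 summits elsewhere. On the domains each of the 4 steps from 100 bp upstream to 300 bp downstream holds 13.3% to 15.8% of summits, against 2.96% to 4.16% elsewhere. Summits beyond 1000 bp are counted in the total but not drawn.

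Among the strongest AGO2 peaks on a narrow domain was that at white (w), an ABC transporter for eye pigment precursors, where the summit lay 7 bp downstream of the TSS. At w the −log10 p was 175.5 in the LaminB knockdown list, where it ranked 1, and 110.1 in the mock list, where it ranked 6. The fold enrichment was 9.26 in knockdown cells and 6.68 in mock cells, and the 2 summits were 2 bp apart. Top1, encoding DNA topoisomerase I, had a mock −log10 p of 105.2 and no knockdown peak.

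The other domains named for a high mock value lie at genes of several kinds. Psc is a Polycomb group gene of the PRC1 complex, and its AGO2 peak had a −log10 p of 29.3 in knockdown cells and 104.9 in mock cells. brk encodes a repressor of Dpp target genes, and its values were 35.7 in knockdown cells and 95.8 in mock cells. jing, a zinc finger gene, had 92.1 in mock cells and no knockdown peak. Pits had 31.0 in knockdown cells and 94.1 in mock cells, and Cbl, an E3 ubiquitin ligase that dampens receptor tyrosine kinase signalling, had 22.5 in knockdown cells and 89.9 in mock cells. kek1, a transmembrane inhibitor of the EGF receptor, had 86.6 in mock cells and no knockdown peak, and the domain at cbt, a zinc finger gene, had 80.1 and none. Psc, brk, Pits and Cbl were chosen for high mock values, so their lower knockdown values are a description, and w, Atpalpha and mld were chosen by the same rule.

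Other domains were named for the highest values in the knockdown list, so comparable or higher values there follow from the choice. Among all 315 domains with a knockdown peak, 88 had a higher −log10 p in the knockdown list than in the mock list. Atpalpha, the catalytic subunit of the sodium pump, had a −log10 p of 92.7 in knockdown cells and 97.3 in mock cells, with its summit in an intron 638 bp upstream of the nearest TSS. Tob had 82.9 in knockdown cells and 80.0 in mock cells. At AGO2 itself the peak lay in coding sequence 245 bp downstream of the TSS, with 74.0 in knockdown cells and 83.8 in mock cells and a fold enrichment of 7.48 and 7.41. puc, the phosphatase that limits JNK signalling and is induced by it, had 57.2 in knockdown cells and 60.0 in mock cells. CHES-1-like, a forkhead gene, had 63.2 in knockdown cells and 61.5 in mock cells. At pnt, an ETS activator downstream of receptor tyrosine kinases, the values were 64.7 in knockdown cells and 45.6 in mock cells, at alpha-Man-Ia, an alpha-mannosidase gene, 69.5 and 45.0, and at tacc, a microtubule regulator, 57.0 and 48.0. These −log10 p values carry any difference in depth between the lists and are set side by side only. At zfh2, a homeodomain and zinc finger gene on chromosome 4, the fold enrichment was 6.63 in knockdown cells and 2.35 in mock cells, the highest ratio of knockdown to mock fold (2.82) among the 315 domains with both. Its mock peak was among the weakest of the mock list, with a −log10 p of 15.49 against a lowest value of 15.43.

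**Figure D3:**
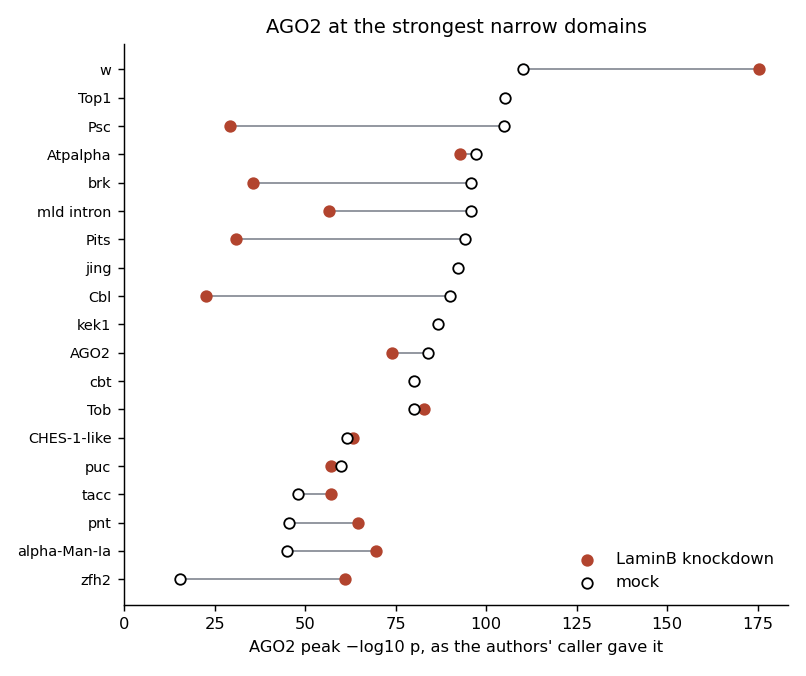
The −log10 p of the strongest AGO2 peak (x axis, as given by the authors' caller) at narrow Pol II domains chosen for the highest value in the mock list, in the LaminB knockdown list, or in the mock list among domains with no knockdown peak. Filled points are LaminB knockdown, open points mock, and a missing filled point means no knockdown peak. w lies at 175.5 in knockdown and 110.1 in mock, zfh2 at 60.9 and 15.5, and Top1 has only its mock value of 105.2.

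Of the 2089 domains, 315 overlapped an AGO2 peak of the LaminB knockdown list (15.1%, interval 13.6% to 16.7%), against 42 of 3488 narrow domains without mock AGO2 (1.20%) and 41 of 228 broad domains with it (18.0%). The share over all Pol II domains was 6.79%. With the stronger 50% of mock peaks alone, 23.01% of the narrow domains with AGO2 had a knockdown peak. Since the rule chose domains by mock AGO2, nothing is read from the difference to domains without it. The knockdown list is shorter, with 761 peaks, and its length depends on depth and enrichment as well as on binding. The mock list reached down to a −log10 p of 15.43 and held peaks weaker than every knockdown peak. A weak mock peak without a knockdown peak is therefore not read as lost. Seen by peak, 328 of the 2277 mock peaks on the domains overlapped a knockdown peak (14.4%, interval 13.0% to 15.9%), against 310 of 1924 elsewhere (16.1%) and 15.2% of all mock peaks. Among the strongest 420 peaks of the mock list by −log10 p it was 51.1% on the domains (121 of 237) and 60.7% elsewhere (111 of 183), and among the weakest 421 it was 3.41% (6 of 176) and 2.04% (5 of 245). Over 10 groups of the mock list by −log10 p, the share was lower on the domains in 8 and higher in 2. For the 328 mock peaks that overlapped a knockdown peak, the 2 summits lay a median of 21 bp apart, and 313 within 100 bp. Elsewhere the median was also 21 bp, with 293 of 310 within 100 bp. Overlap was required of these pairs, so the nearness is a description. On the domains the knockdown peaks of these pairs had a median fold enrichment of 3.42 against 3.79 for their mock partners. A higher fold in knockdown cells was seen in 127 of the 315 domains.

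Overlap with a knockdown peak went with the place of the mock summit, and coding summits had the lowest share. Of the 784 coding summits on the domains, 15 overlapped a knockdown peak (1.91%, interval 1.16% to 3.13%). The share was 13.7% for 5′ UTR summits (90 of 656), 23.6% for intergenic ones (62 of 263), 28.3% for intronic ones (142 of 501) and 30.5% for noncoding exons (18 of 59). Elsewhere coding summits also had the lowest share, 1.54%, followed by 5′ UTRs (24 of 150), 18.9% between genes, 3′ UTRs (9 of 36), 28.4% for noncoding exons and 28.9% for introns. On the domains 1 of 14 summits in 3′ UTRs overlapped one. Coding peaks were also weaker, wider and more GC-rich, with a median −log10 p of 19.7 against 25.5 for intronic ones, a median width of 649 bp against 488 bp, and a median GC content of 56.1% against 51.5% in the 301 bases around the summit. The gap was also present among strong peaks. In the strongest 20% of mock peaks, 8 of 60 coding summits (13.3%, interval 6.91% to 24.2%) and 181 of 435 noncoding ones (41.6%, interval 37.1% to 46.3%) had a knockdown peak, with median −log10 p of 37.9 and 43.1. In the weakest 50% the counts were 1 of 495 and 45 of 538. The parts of GC content and peak width in this difference were not tested.

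A knockdown peak lay on 42 of 601 domains with TSSs on both strands (6.99%, interval 5.21% to 9.31%) and on 225 of 1263 with TSSs on 1 strand (17.8%, interval 15.8% to 20.0%). Domains without a TSS had one in 48 of 225 (21.3%). The strongest summit was coding in 48.9% of the domains with TSSs on both strands and in 27.6% of those with TSSs on 1 strand. With noncoding strongest summits alone, the shares were 38 of 307 (12.4%, interval 9.15% to 16.5%) and 214 of 914 (23.4%, interval 20.8% to 26.3%). In domains of 1000 bp or more with such summits they were 28 of 236 (11.9%) and 54 of 205 (26.3%). Mock strength moved with these counts, with a median −log10 p of 21.3 for all domains with TSSs on both strands and 23.8 for those with TSSs on 1 strand, and of 23.96 and 28.60 in the last comparison, and its part was not tested. No test was run on these counts, since the regions are not replicates.

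GAGAG copies around the summit also moved with the knockdown list. The motif was searched on both strands in the 301 bases around each summit, and it lay in 48.4% of windows on the domains, 49.6% of windows of mock peaks elsewhere and 32.4% of windows of 250 bases before to 50 after every annotated TSS. The median GC content was 53.2% in the windows on the domains and 39.5% in those at every annotated TSS. No background of matched base composition was used, so the contrast with promoters is not read as enrichment of the motif. By domain, 1055 of 2089 (50.5%) held the motif at a summit. Overlapping copies counted, 33.2% of summits with 3 or more copies had a knockdown peak (136 of 410), 17.8% of those with 1 or 2 (123 of 692) and 5.87% of those with 0 (69 of 1175). Coding summits rarely held 3 copies (24 of 784, 3.06%), while intronic ones often did (162 of 501, 32.3%). Among noncoding summits in the strongest 20% of mock peaks, the order was the same, 57.2% with 3 or more copies (87 of 152), 41.9% with 1 or 2 (62 of 148) and 23.7% with 0 (32 of 135), with median −log10 p of 45.5, 42.7 and 41.7. In the weakest 50% they were 11.9%, 12.8% and 4.40%. CHES-1-like, whose window above carries 8 copies, and tacc with 3 are in the group with 3 or more. Both were named for high knockdown values, so their knockdown peaks follow from that choice. A match to these letters is a description and not a binding site.

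**Figure D4:**
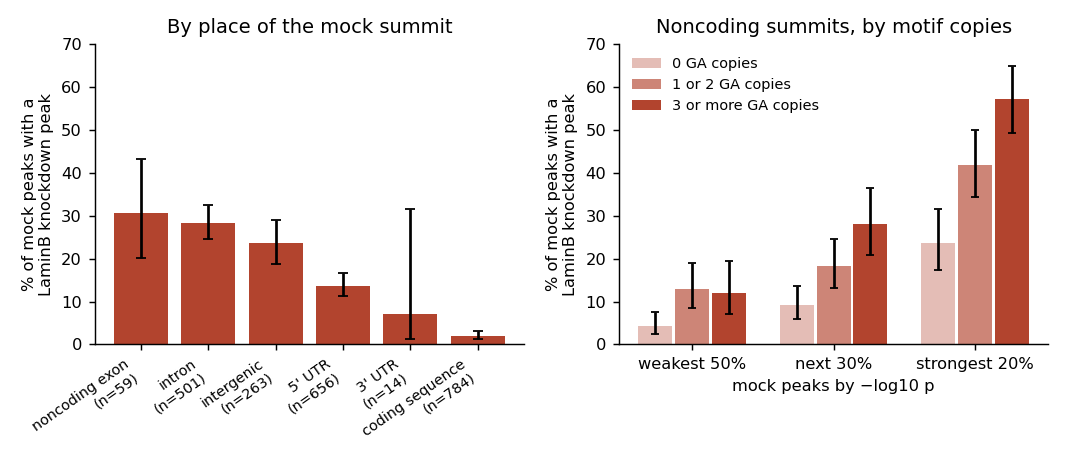
Percent of mock AGO2 peaks on narrow Pol II domains that overlap a LaminB knockdown AGO2 peak, with 95% Wilson intervals over peaks. Left, by annotated feature at the mock summit: 28.3% for introns and 1.91% for coding sequence. Right, noncoding summits by mock −log10 p class and by copies of the 5-base GA motif on either strand within 150 bp of the summit: in the strongest 20%, 57.2% with 3 or more copies and 23.7% with 0.

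The differences were a few percentage points at promoters. In the windows of 250 bases before to 50 after a TSS, GAGAG lay in 36.7% of promoters in domains with AGO2 and 32.6% in narrow domains without it. The DNA replication-related element TATCGATA, common at housekeeping promoters, lay in 14.5% and 13.5%, against 6.77% of all promoters, and GGTCACAC, the core of another housekeeping element, in 14.5% and 12.6%, against 5.63% of all. TATAAA, the TATA box letters, lay in 38.0% and 42.1%, against 41.5% of all. All 4 were searched on both strands, and none of them contains another. At the AGO2 summits TCAGT, letters of the initiator element searched likewise, lay in 41.7% of windows on the domains and 34.4% elsewhere, against 51.3% of all promoters. The repeat CACACACA, searched likewise, lay in 16.3% of windows on the domains and 21.7% elsewhere, against 5.83% of all promoters, and in 25.6% of summits with a knockdown peak against 14.8% of those without. The median GC content of promoters was 40.2% in domains with AGO2 and 37.9% in narrow domains without it, while the windows at AGO2 summits on the domains had 53.2%. No motif share was set against a background of matched base composition, so shares at summits and at promoters are descriptions only.

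In the 225 domains without a TSS, most of the strongest AGO2 summits lay inside genes, as did most summits of the whole mock list. The strongest summit was intronic in 94 (41.8%), coding in 72 (32.0%) and intergenic in 31 (13.8%). Over all mock AGO2 summits these shares were 27.8%, 35.7% and 13.2%. The median width of the 225 domains was 433 bp. The edge of 72 of them lay within 500 bp of a TSS, and that of 45 lay more than 5000 bp from one. The strongest lay in an intron of mld, a zinc finger gene needed for ecdysone synthesis, with a −log10 p of 56.5 in knockdown cells and 95.8 in mock cells. Others lay in an intron of mam, a co-activator of Notch, with 22.1 in knockdown cells and 78.9 in mock cells, and over the 3′ UTR of Ppa, with 41.9 and 78.4. The mock summit at Ppa lay in this 3′ UTR but outside the domain. A domain in an intron of tara had 78.1 in mock cells and no knockdown peak. An intergenic domain of 501 bp on 2R (22678123 to 22678623) had 25.6 in knockdown cells and 75.6 in mock cells.

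At the level of genes, 2483 genes had a TSS in a narrow domain with AGO2, 36.6% of the 6778 with a TSS in any Pol II domain. Of these 2483, 2373 were protein-coding. The protein-coding genes spanned a median of 3807 bp, against 2977 bp for genes with TSSs in narrow domains without AGO2 only. The share of Pol II genes whose TSS lay in a domain with AGO2 was 30.2% for spans under 2000 bp, 37.0% from 2000 bp, 39.7% from 5000 bp, 43.6% from 10000 bp and 52.3% from 30000 bp (217 of 415). Most genes had 1 such domain, while 86 had 2 and 10 had 3. The 10 are Bx, Eip63E, fru, kay, larp, mamo, pnt, prage, ps and tou. A long gene with many start sites has more chances to meet the rule. The part of start-site number in these shares was not tested.

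The 10 gene lists were counted by narrow domain at a TSS, where 39.3% of 4737 carried AGO2. Genes of the ecdysone response, the steroid hormone pathway that times insect development and to which Kc cells respond, stood highest. AGO2 lay on 23 of their 31 narrow domains (74.2%, interval 56.8% to 86.3%). By gene the share was 18 of 22 (81.8%). It was 36.6% of all genes with a TSS in any Pol II domain, and 41.3% of those with one in a narrow domain. The receptor genes were among them. EcR had a mock −log10 p of 17.6 and no knockdown peak, its partner usp had 17.0 and none, and the co-activator tai had 24.7 and none. The mock values at EcR and usp lay below every value of the knockdown list, so equal peaks would not be listed there. Among early and early-late response genes, Eip75B, a nuclear receptor gene, had 36.1 in knockdown cells and 33.8 in mock cells at its stronger domain. ftz-f1, a nuclear receptor gene that gives competence for later pulses, had 39.2 in knockdown cells and 43.2 in mock cells at one domain and 34.1 and 42.8 at the other. Eip78C had 25.1 in both lists, Hr39 had 25.1 in knockdown cells and 18.0 in mock cells, and ImpL2 had 23.1 in knockdown cells and 56.2 in mock cells. br, Hr3, Hr38, Hr4 and Hr96 had mock values of 17.5 to 36.7 and no knockdown peak. In all, 8 of the 23 ecdysone domains held a knockdown peak, against 14.3% of the 1864 domains at any TSS.

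Signalling and feedback genes came next, with AGO2 on 35 of 54 narrow domains (64.8%, interval 51.5% to 76.2%) and a knockdown peak on 13 of the 35. Among ligands, wg had 24.3 in knockdown cells and 45.2 in mock cells, egr, the fly TNF, had 34.3 in knockdown cells and 25.4 in mock cells, and spi, upd3 and vn had 15.9 to 17.6 in mock cells and no knockdown peak. The mock values of spi, upd3 and vn also lay below every value of the knockdown list. Among receptors, ptc had 22.2 in knockdown cells and 53.8 in mock cells, and N and dome had 23.6 and 50.6 in mock cells and no knockdown peak. Among transcription factors, pnt had 3 domains, each with a knockdown peak. Dif had 32.5 in knockdown cells and 17.6 in mock cells, emc 42.1 and 19.6, and Atf3 65.8 in mock cells alone. Among feedback inhibitors, puc had the values given above in both lists, and aos, sty and Socs36E had 22.7 to 30.6 in mock cells and no knockdown peak.

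The lists of housekeeping machinery lay nearer to the value for all narrow domains. AGO2 lay on 18 of 40 narrow domains at cytoplasmic ribosomal protein genes (45.0%, interval 30.7% to 60.2%), with no knockdown peak on any of the 18. Some of the 18, such as RpL13 with a mock −log10 p of 17.1, lay below every value of the knockdown list. Of the 81 such genes with Pol II, 41 had it in broad domains only, so by gene the share was 22.2%. It lay on 18 of 48 at mitochondrial ribosomal protein genes (37.5%), with 1 knockdown peak, on 9 of 26 at proteasome genes (34.6%), with 0, and on 5 of 15 at pausing and elongation genes (33.3%), with 0. Cytoskeletal genes had 15 of 30, glycolytic genes 8 of 15, hemocyte genes 11 of 23 and the list labelled Argonaute and Dicer 5 of 13. The 5 last were at AGO1, AGO2, armi, vret and zuc, and AGO2 alone of these had a knockdown peak. The list is wider than its label, since armi, vret and zuc are neither Argonaute nor Dicer genes. A knockdown peak lay on 4 of the 11 hemocyte domains, and those at LanB2, Nplp2, Pxn, SPARC, drpr, lz and msn had none. Among the hemocyte genes with one, zfh1 had 35.8 in knockdown cells and 80.1 in mock cells. The GATA co-factor ush had 57.0 and 21.9 at one of its 2 domains and 29.7 and 62.6 at the other. The lists were chosen with results of these data known and mock AGO2 is part of the rule, so no list is called different from the rest, and no set test was run.

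**Figure D5:**
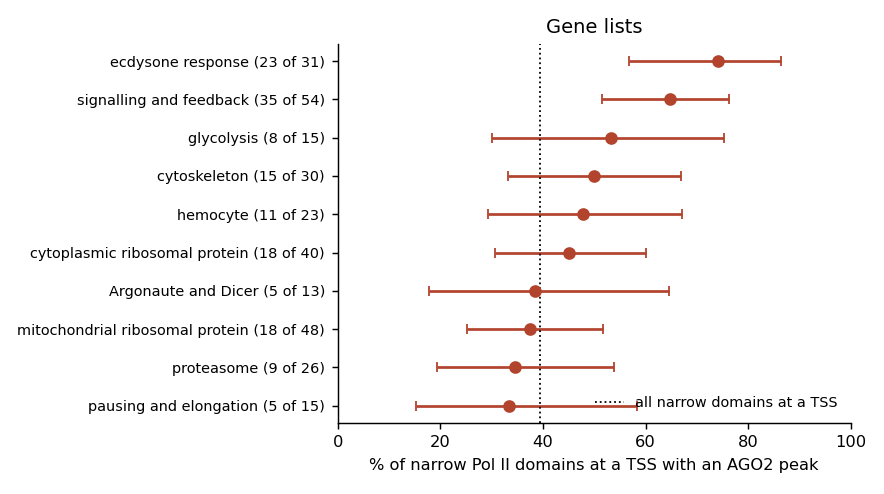
Percent of narrow Pol II domains at a TSS that carry a mock AGO2 peak, for 10 gene lists (points, with 95% Wilson intervals over domains), with the number of domains in brackets. The dotted line is the 39.3% of all narrow domains at a TSS. The shares run from 33.3% for pausing and elongation genes to 74.2% for ecdysone response genes, and several domains can belong to 1 gene.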

How the data were processed

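ChIP-seq of AGO2 (LaminB knockdown and mock Kc167 cells) and of Pol II (mock cells) was compared as deposited peak lists. The submitters' processing notes and the study's methods name cutadapt 1.10 for trimming, Bowtie2 2.2.8 for alignment to dm6, SAMtools 1.3.1 and Picard 2.5.0 for filtering and duplicate removal, and MACS2 2.1.1.20160309 for peak calls. AGO2 peaks were called on pooled replicates against pooled input, ranked by p-value and cut at the number reproducible between pooled pseudoreplicates. Pol II domains were pooled broad calls also present in a replicate. The deposited AGO2 lists give fold enrichment (a linear ratio), −log10 of the authors' p-value, a score that is a multiple of it (not used) and a summit; the deposited Pol II list gives positions only. The −log10 q column was not used. The lists hold no read counts, so depth is unknown.

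Overlaps of at least 1 bp, nearest TSSs (Ensembl 115 annotation, BDGP6.54), summit features (coding sequence before UTR, noncoding exon, intron, intergenic) and motif matches (RefSeq dm6 genome) were computed with Python 3.11.15 and pandas 2.3.3, and the functions were checked on planted intervals. Coordinates count from 1. Shares carry 95% Wilson intervals. The members and gene lists were chosen with earlier results of these data known. Named domains were the 10 strongest in each AGO2 list, the 5 strongest without a knockdown peak, the 5 strongest without a TSS, those with most peaks, those nearest the rule's limits, and genes of the lists; domains and list genes not described are counted in their groups, and 1 of the strongest domains is not reported here. The alternatives varied the overlap, the width limit, the AGO2 threshold, the chromosomes, the TSS set and the motif window.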

Additional observations from a re-analysis of the deposited data

How the results depend on the processing

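The 7 summary values were recomputed under the alternatives, giving 54 values, of which 29 stayed within the 95% interval of the value reported and 25 moved beyond it. The replicates were pooled in each deposited list, so no replicate could be left out. No paired analysis was possible because the lists carry no replicate columns. The share of narrow domains with AGO2 was 33.8% with a required overlap of 50% of the shorter interval, 33.2% when only summits inside the domain counted, 32.2% and 38.8% with width limits of 1000 and 3000 bp, 21.2% with the stronger 50% of mock peaks, and 24.4% when mock peaks weaker than every knockdown peak were dropped. The share with a TSS was 85.6% with the 1000 bp limit and 92.7% with TSSs widened by 500 bp. The share with a knockdown peak was 23.01% with the stronger 50% of mock peaks and 20.8% with the weakest knockdown peak as threshold. The downstream share of summits was 67.5% with 50% overlap, 64.8% with 1000 bp, and 63.4% and 65.1% with those 2 strength thresholds. The median distance to a TSS was 177 bp with 50% overlap, 175 bp with summits inside, 177 bp with 1000 bp, and 159 and 168 bp with the strength thresholds. The GAGAG share was 57.5% and 55.4% with the strength thresholds and 41.5% within 100 bp of the summit. The median fold enrichment was 3.25 with 1000 bp and 3.62 and 3.52 with the strength thresholds. The cause of these shifts was not tested. Depth is unknown, so a domain without a knockdown peak is one without a listed peak, not one shown to lack AGO2.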
